A study of Eisenia fetida with 15 samples.

Results

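The cathepsin transcripts with the highest mean level in the compost earthworm *Eisenia fetida* are described here across 5 conditions of a soil test with lindane, an organochlorine insecticide. Cathepsins are the proteases of the lysosome, and their transcripts were found by name: a unigene, which is an assembled transcript contig, counted where its best protein match is called cathepsin or legumain and not an inhibitor. Of 241846 unigenes in the deposited table, 58313 had a protein match and 65 had such a name, none of them legumain. The 10 members were chosen by their mean level over all 15 libraries, the 10 highest, so their high level is not a result. The threshold lay between Second_Contig414 (cathepsin S), whose mean was 77.6 FPKM, and contig_8180 (cathepsin C) at 75.5 FPKM and contig_13435 (cathepsin L) at 72.7 FPKM. FPKM is the number of fragments scaled by transcript length and library size. The deposited values do not follow the listed length and counted reads alone, and for short contigs the scaling differs between libraries. contig_3409 (433 bases) had 575.7 FPKM from 1173 of 14835227 reads in library 1 of the condition coded 30d-7d. In library 2 of 30d-28d it had 329.0 FPKM from 1767 of 23619530 reads. Rankings by FPKM therefore hold for that scale only, and the main tests used the read counts. Another cathepsin, contig_53226, averages 18.0 FPKM and lies outside the 10. It had been listed by name along with contig_650 and contig_3410 because earlier results of these data were known, so its values are given as a description. contig_650 and contig_3410 are among the 10 by mean level, but their tests below are not independent of those earlier results either.

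All worms were adults, RNA was taken from sections of the whole body, and each condition has 3 libraries, called a triplet below. Codes name the triplets by soil aging and then by exposure. In 30d-28d the nominal 2.4 mg/kg of lindane had aged 30 d in the soil and worms stayed 28 d. In 30d-7d they stayed 7 d in the same soil. The 0d-28d worms stayed 28 d in freshly spiked soil and the 0d-7d worms 7 d, and the code of control gives neither time. The treatment text of these libraries disagrees with the codes by a shift of 1 triplet. There 30d-28d is 7 d in soil aged 30 d, 30d-7d is 28 d in fresh soil, 0d-28d is 7 d in fresh soil, 0d-7d is worms at 0 d without exposure, and control is 28 d in soil aged 30 d. No measured value served to choose between the names. Triplets are called by their codes, all 10 pairs were compared, and any direction against control depends on the codes being right. Under the codes, comparisons with control cannot separate lindane from its aging or from the stay in soil. It is not stated whether each library is a separate worm, and p-values then measure the spread between libraries, which may be technical.

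Cathepsins B, C, L and S are cysteine proteases of the papain family. They are made as inactive precursors, sorted to the lysosome and activated on the way or there, and cystatins block them. In many invertebrates related enzymes are also released into the gut lumen and digest food there, and roles of single members given below are known from mammals. The deposited table gives no sequence of the unigenes, so members that share a name may be fragments or near-identical copies of the same transcript, between which reads could have been split.

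Libraries held 13182058 to 28022746 counted reads, and member counts ran from 2 reads for Second_Contig414 in its lowest library to 28166 reads in its highest. In 0d-28d library 3 the 101090 tested unigenes held 90.8% of reads, and in the other libraries at least 97.8%. Spearman's rho over unigenes averaged 0.663 within triplets and 0.681 between them, and no pair of libraries exceeded 0.774. Body sections hold many tissues. The 5 lists of tissue markers (153 gut, 45 muscle, 60 coelomocyte and immune, 29 globin and 41 germ cell unigenes) had summed levels above 0 in each library, but gut markers summed to between 430 and 82272 FPKM. Globins of the blood summed to 32.7 FPKM in 0d-28d library 3 and to at least 3114 FPKM in each of the others, and germ cell markers to 1068 FPKM in that library and at most 243 FPKM elsewhere. In such bulk samples fewer cells of a type and less RNA per cell cannot be told apart.

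Summed over the 65 cathepsin unigenes, the level was 3689 ± 451 FPKM in 30d-28d, 3537 ± 898 in 30d-7d, 2726 ± 767 FPKM in 0d-28d, 2287 ± 212 in 0d-7d and 3675 ± 736 FPKM in control (SD, n = 3 each). The 0d-7d triplet was the lowest, and its libraries lay between 2078 and 2502 FPKM against 2874 to 4321 FPKM in control. Cathepsin L names made up most of it, with 48 of the 65 unigenes. Their sum was 2668 ± 400 FPKM in 30d-28d, 2496 ± 689 in 30d-7d, 1849 ± 733 FPKM in 0d-28d, 1589 ± 148 in 0d-7d and 2492 ± 532 FPKM in control. The 8 cathepsin C unigenes summed to 484.6 ± 227.0, 419.0 ± 84.2, 412.9 ± 277.4, 284.0 ± 68.0 and 334.2 ± 41.1 FPKM in the same order. The 4 of cathepsin B summed to 457.2 ± 87.6, 419.4 ± 153.3, 458.5 ± 221.3, 384.9 ± 114.2 and 554.2 ± 88.2 FPKM. These sums were not tested. The 10 members carried 48.4% to 81.6% of the summed cathepsin level of a library.

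**Figure D1:**
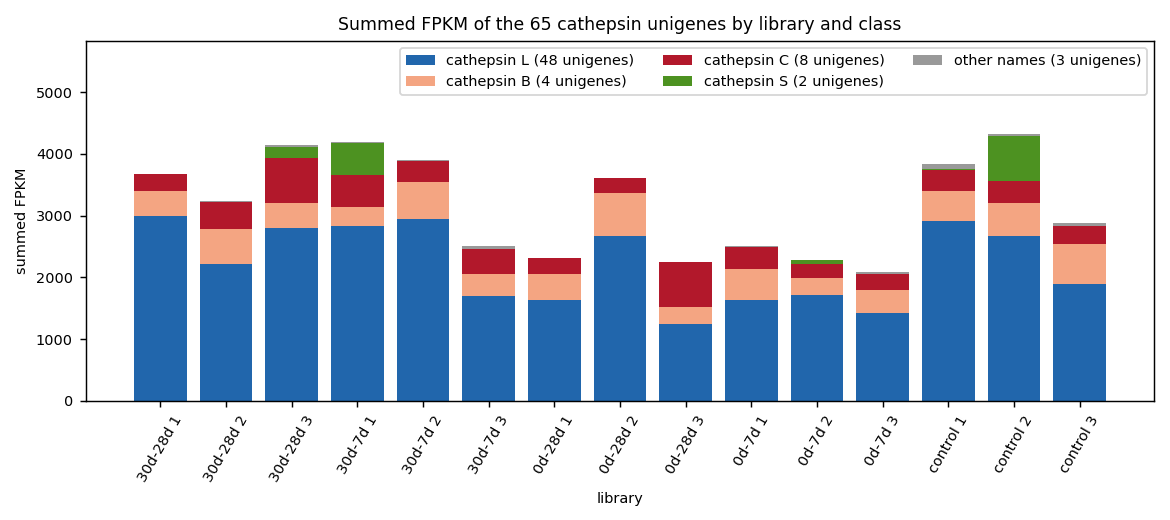
Stacked bars of the summed FPKM of the 65 cathepsin unigenes in each of the 15 libraries, coloured by name class and ordered by triplet. Cathepsin L is the largest class in all libraries, and the 3 bars of 0d-7d, 2078 to 2502 FPKM, lie below the control bars, 2874 to 4321 FPKM.

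Of the 10 members 5 carry a name of cathepsin L, a lysosomal endopeptidase. The highest in mean FPKM was contig_3409 (C1 family cathepsin L3, 433 bases). It had values of 647.7, 329.0 and 565.6 FPKM in libraries 1, 2 and 3 of 30d-28d, 575.7, 615.1 and 223.9 in 30d-7d, 339.4, 577.3 and 262.4 in 0d-28d, 247.6, 228.8 and 64.0 in 0d-7d, and 409.8, 536.4 and 301.9 in control. The 0d-7d libraries were the 3 lowest but for 30d-7d library 3, which lay below 2 of them. Next was contig_1053 (putative cathepsin l-like cysteine proteinase b, 2010 bases), with 648.4, 374.7 and 468.9 FPKM in 30d-28d, 356.6, 556.8 and 299.2 in 30d-7d, 325.7, 498.0 and 247.7 in 0d-28d, 222.9, 219.9 and 133.5 in 0d-7d, and 455.2, 460.0 and 302.4 in control. Here all 3 libraries of 0d-7d lay below the 12 others.

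contig_3410 (Cathepsin L, 883 bases) had 537.7, 297.5 and 328.9 FPKM in 30d-28d, 240.4, 332.5 and 254.5 in 30d-7d, 214.6, 361.7 and 182.1 in 0d-28d, 109.9, 149.1 and 59.4 in 0d-7d, and 203.7, 268.3 and 188.3 in control. contig_5918 (Cathepsin L3, 472 bases) had 435.2, 197.1 and 228.6 FPKM in 30d-28d, 134.3, 204.7 and 171.8 in 30d-7d, 128.2, 263.7 and 116.6 in 0d-28d, 69.5, 89.2 and 17.8 in 0d-7d, and 107.0, 158.4 and 96.7 in control. For both the 0d-7d libraries were again below the 12 others, and 30d-28d library 1 was the highest of all. The fifth, contig_8943 (putative cathepsin l-like cysteine proteinase a, 570 bases), ran otherwise. It averaged 264.3 ± 104.3 FPKM in 30d-28d, 301.9 ± 170.9 in 30d-7d, 145.0 ± 73.1 FPKM in 0d-28d, 307.8 ± 53.6 in 0d-7d and 264.7 ± 47.2 FPKM in control (SD, n = 3), so that 0d-28d was the lowest and 0d-7d was not.

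Cathepsin C, or dipeptidyl peptidase 1, trims dipeptides from the amino end of proteins and in mammals activates the serine proteases of immune cell granules. Its unigene highest in mean FPKM, contig_650 (591 bases), had 153.0, 148.4 and 142.3 FPKM in 30d-28d, 190.7, 133.8 and 97.8 in 30d-7d, 141.7, 120.4 and 121.4 in 0d-28d, 84.9, 51.6 and 41.1 in 0d-7d, and 125.4, 122.9 and 83.8 in control. The 3 values of 0d-7d were the lowest, except that control library 3 lay just under 0d-7d library 1.

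Cathepsin B cuts both inside proteins and, as a carboxydipeptidase, from their end, and 3 members carry its name. contig_6407 (1241 bases) averaged 253.9 ± 72.2 FPKM in 30d-28d, 193.5 ± 132.7 in 30d-7d, 273.9 ± 137.3 FPKM in 0d-28d, 212.7 ± 59.8 in 0d-7d and 281.1 ± 43.0 FPKM in control. contig_6375 (806 bases) ranged from 29.9 FPKM in 30d-7d library 1 to 182.5 in control library 3. For both, every pair of triplets overlapped. contig_23403 (562 bases) had 98.7, 83.1 and 158.7 FPKM in 30d-28d, 214.9, 158.4 and 108.7 in 30d-7d, 55.5, 99.6 and 81.4 in 0d-28d, 127.7, 87.0 and 91.3 in 0d-7d, and 152.5, 223.3 and 140.9 in control. Its control libraries all lay above those of 0d-28d and of 0d-7d.

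**Figure D2:**
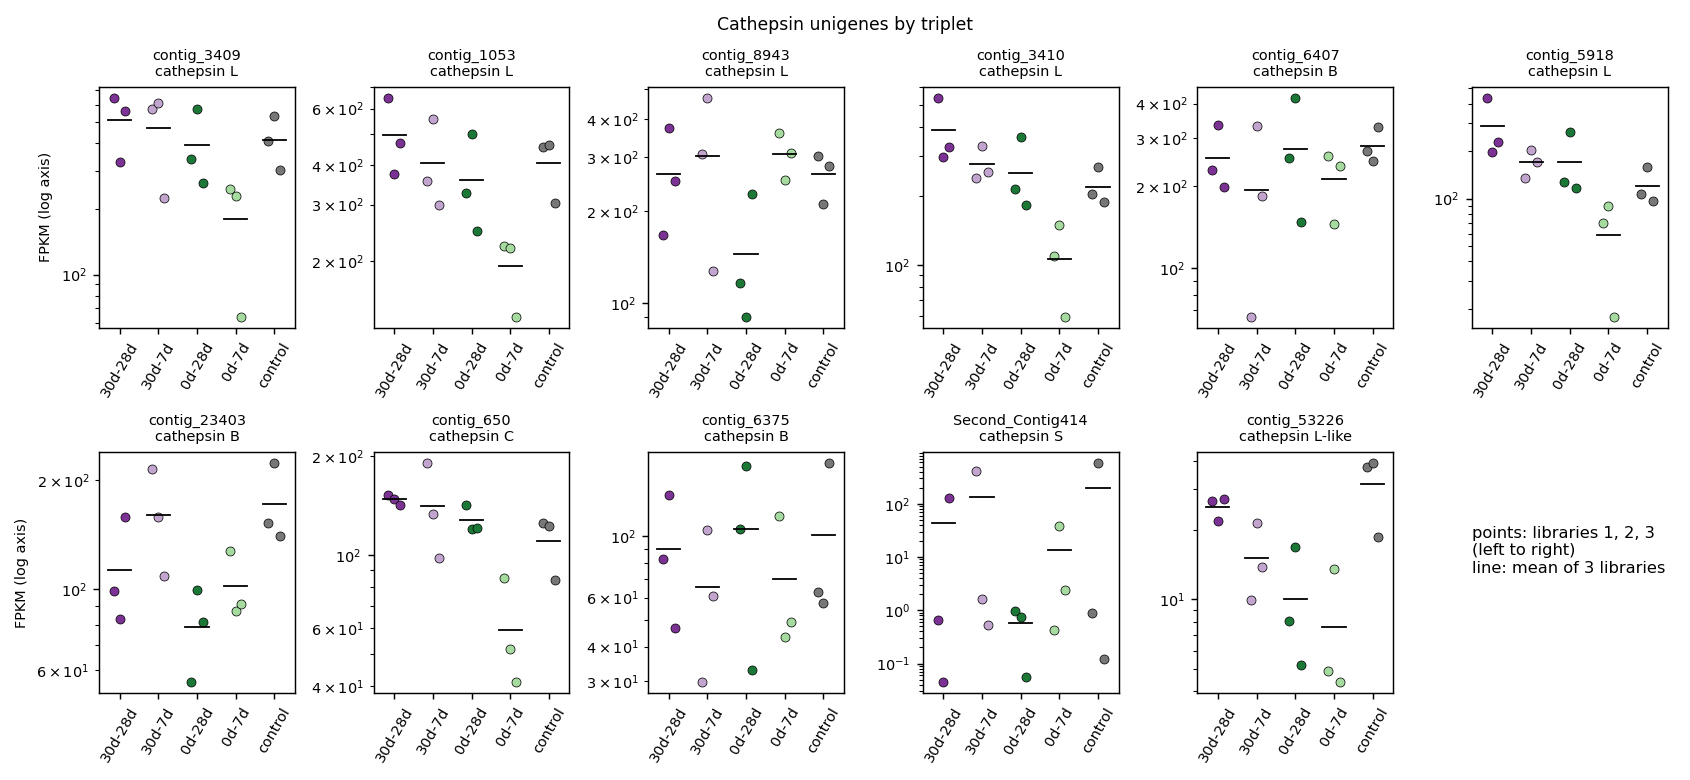
FPKM on log axes for the 10 members and contig_53226, with points for libraries 1, 2 and 3 from left to right in each triplet and a line at the mean. For contig_1053, contig_3410 and contig_5918 all 3 points of 0d-7d lie below the 12 others, and Second_Contig414 is over 10 FPKM in 4 libraries.

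A whole triplet standing below the 12 other libraries is uncommon. For 0d-7d this held for 3 of the 10 members in FPKM, and for 0.266% of all 101090 unigenes tested. After scaling the read counts by TMM, the trimmed mean scaling of edgeR, in place of FPKM, contig_650 joined them and the count was 4, against 0.407% of unigenes on that scale. No other triplet stood below or above the rest for any member on either scale, and in FPKM 0.092% to 0.413% of unigenes did so, depending on the triplet and direction. The share of the variance of log2(FPKM + 1) that lay between triplets was 74.2% for contig_650, 74.0% for contig_3410, 66.7% for contig_5918 and 63.9% for contig_1053. It was 9.07% for contig_6375 and 11.1% for Second_Contig414, and the median over all unigenes tested was 25.3%.

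Across the 5 triplets none of the 10 members passed the edgeR quasi-likelihood test at an adjusted p of 0.05, a comparison in which 0.000989% of unigenes, a single one, passed. The lowest adjusted p was 0.712, for contig_650. At an unadjusted p under 0.05 there were 4 members, contig_650, contig_3410, contig_5918 and contig_1053, in a comparison where 6.07% of unigenes reached that level. Leaving out single libraries brought this count down to 2, without 0d-7d library 1 or without 30d-28d library 1. DESeq2, whose likelihood ratio test called 1.19% of unigenes, called contig_650 (adjusted p = 0.00474) and contig_3410 (adjusted p = 0.0311), and limma on log2 FPKM called neither. This test over triplets is the same under both namings of the labels. Since contig_650 and contig_3410 had been listed from earlier results of these data, their p-values here and below are not independent support.

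The 4 comparisons with 0d-7d hold most of what separates the members, and all of them share its 3 libraries, so they are set side by side and not counted as support of each other. In 30d-28d against 0d-7d, by the treatment text 7 d in aged soil against no exposure, 9 of 10 members were higher. No member passed in edgeR, where 0% of unigenes did. At an unadjusted p under 0.05, 5 members were higher, against 2.76% of unigenes: contig_3409, contig_1053, contig_3410, contig_5918 and contig_650. Their log2 changes ran from 1.41 for contig_1053 to 2.31 for contig_5918, and in all 5 the libraries of the triplets did not overlap, which held in this direction for 4.59% of unigenes. The member with the lowest p was contig_650, at a log2 change of 1.48 (SE 0.313, 95% interval 0.80 to 2.16, edgeR adjusted p = 0.885). DESeq2 called 4 members where it called 0.452% of unigenes: contig_650 (log2 change 1.46, adjusted p = 0.000179), contig_3410 (1.95, 0.00111), contig_5918 (2.29, 0.0202) and contig_1053 (1.38, 0.0489). The 5 stayed under an unadjusted p of 0.05 in edgeR with any 1 library left out.

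In 0d-28d against 0d-7d, by the text 7 d in fresh soil against no exposure, 7 of 10 members were higher. No member passed in edgeR, where 0% of unigenes did, and 5 were higher at an unadjusted p under 0.05, against 5.84% of unigenes. They are the same unigenes as in the comparison before, with log2 changes from 0.98 for contig_1053 to 1.61 for contig_5918 and with triplets that did not overlap, as for 4.82% of unigenes. contig_650 had the lowest p, with a log2 change of 1.31 (SE 0.311, 95% interval 0.63 to 1.99, edgeR adjusted p = 0.528). DESeq2 called it alone among the members (1.28, adjusted p = 0.00242), where it called 1.26% of unigenes. contig_8943 lay in the other direction, with all 0d-28d libraries below all 0d-7d libraries, as for 6.27% of unigenes, and a log2 change of -0.91 (unadjusted p = 0.0784 in edgeR). The count of 5 became 2 without 0d-28d library 2 and 3 without 0d-7d library 3. Without 0d-28d library 3, which was low in globins and high in germ cell markers, contig_650 stood at 1.29 and contig_8943 at -1.41 with an unadjusted p of 0.0173 in edgeR.

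In 30d-7d against 0d-7d, by the text 28 d in fresh soil against no exposure, 7 of 10 members were again higher, and none passed in edgeR, where 0% of unigenes did. The 4 members contig_1053, contig_3410, contig_5918 and contig_650 were higher at an unadjusted p under 0.05, against 1.99% of unigenes, and did not overlap, as for 4.62% of unigenes. Lowest in p was contig_650, with a log2 change of 1.09 (SE 0.310, 95% interval 0.42 to 1.76, edgeR adjusted p = 1). DESeq2 called it (1.07, adjusted p = 0.0483) where it called 0.352% of unigenes. The count was 2 without 0d-7d library 3 or without 30d-7d library 2.

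In 0d-7d against control, the codes compare worms after 7 d in freshly spiked soil with the control worms. Of the 10 members 9 were lower, with a median log2 change of -1.08 beside -0.04 over all unigenes tested. None passed in edgeR, where 0.000989% of unigenes did, nor in DESeq2, where 0.364% did, and 5 were lower at an unadjusted p under 0.05, against 2.44% of unigenes: contig_3409, contig_1053, contig_3410, contig_650 and the cathepsin B contig_23403. The triplets did not overlap for contig_3409, contig_1053, contig_3410, contig_5918 and contig_23403, as for 4% of unigenes in this direction. On TMM-scaled counts contig_650 was separate too, the sixth, against 4.98% of unigenes. contig_650 had a log2 change of -1.06 (SE 0.310, 95% interval -1.73 to -0.39, edgeR adjusted p = 1). Without 0d-7d library 3 only contig_650 of the 5 stayed under an unadjusted p of 0.05, and without control library 2 there were 2.

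The 0d-7d library 3 was the lowest of all libraries for contig_3409, contig_1053, contig_3410, contig_5918 and contig_650. It also had the highest summed level of muscle markers (13705 FPKM, 947 to 8420 in the 12 libraries outside its triplet) and of globins (27816 FPKM, 32.7 to 19850 outside its triplet), while its triplet's gut markers, 533 to 23026 FPKM, lay within the range of the others. Without that library the log2 change of contig_650 was 1.32 in 30d-28d against 0d-7d, 0.91 in 30d-7d against 0d-7d, 1.11 in 0d-28d against 0d-7d and -0.88 in 0d-7d against control. That of contig_3410 was 1.69, 1.06, 1.04 and -0.82 in the same order. Their directions were those of the full data. Over 15 libraries the log2 level of contig_3410 correlated with the summed markers at -0.405 for muscle, 0.158 for gut and 0.116 for coelomocyte and immune. For globins the correlation was -0.096 and for germ cell markers -0.057. The part of the markers in the result was not tested.

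**Figure D3:**
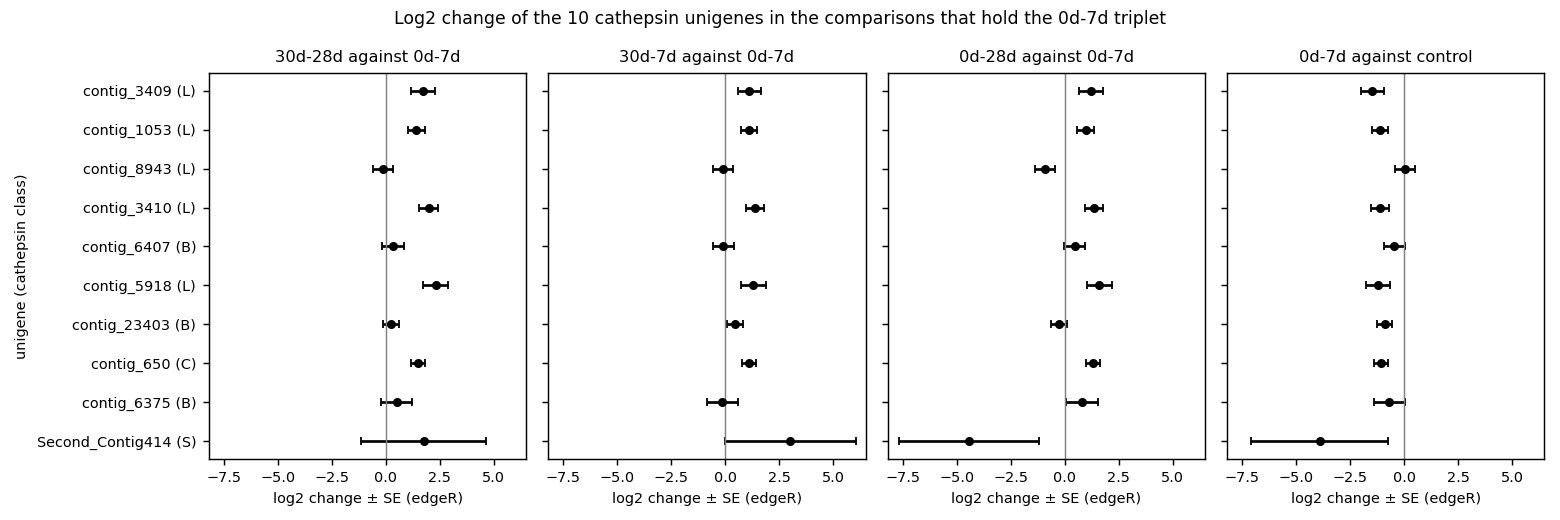
Log2 change with its SE from the edgeR fit for the 10 members in the 4 comparisons that hold the 0d-7d triplet. contig_3409, contig_1053, contig_3410, contig_5918 and contig_650 lie above 0 in the comparisons over 0d-7d and below 0 in 0d-7d against control, although no adjusted p was under 0.05.

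In 30d-28d against control 5 members were higher and 5 lower, none passed in edgeR (0.000989% of unigenes) or DESeq2 (0.464%), and none had an unadjusted p under 0.05, a level that 4.31% of unigenes reached. contig_3410, contig_5918 and contig_650 lay above control without overlap, as did 4.61% of unigenes, and contig_3410 had the lowest p at a log2 change of 0.85 (SE 0.411, 95% interval -0.04 to 1.74, edgeR adjusted p = 1). Without 0d-7d library 3, contig_3410 and contig_5918 came under an unadjusted p of 0.05, and 1 member did without 0d-28d library 2, 0d-7d library 2, 30d-28d library 2 or 3, or control library 2. In 30d-7d against control 7 of 10 were lower, with no member under an unadjusted p of 0.05 (3.5% of unigenes), with any 1 library left out as well, none called by edgeR (0.000989%) or DESeq2 (0.334%), and no separate triplets (4.23% of unigenes higher, 3.08% lower). contig_23403 had the lowest p there, with a log2 change of -0.46, and contig_650 stood at 0.03 (95% interval -0.64 to 0.69).

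In 0d-28d against control the cathepsin B contig_23403 had the lowest p of the members. It was the single one under an unadjusted p of 0.05 (lower, as 3.61% of unigenes) and the single one with separate triplets (lower, 5.66%), at a log2 change of -1.16 (SE 0.363, 95% interval -1.95 to -0.38, edgeR adjusted p = 0.591). The other triplets lay below control for contig_23403 as well, with log2 changes of -0.90 in 0d-7d, -0.46 in 30d-7d and -0.66 in 30d-28d. edgeR called none of the 10 (0.000989% of unigenes), and DESeq2 called none (1.15%). Leaving out 1 library gave 1 or 2 such members, and without 0d-28d library 3 the log2 change of contig_23403 was -1.23.

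Soil aging at equal exposure is the question of 30d-28d against 0d-28d and of 30d-7d against 0d-7d by the code, and exposure at equal aging that of 30d-28d against 30d-7d and of 0d-28d against 0d-7d. In 30d-28d against 0d-28d 8 of 10 members were higher with a median log2 change of 0.49, beside -0.03 over all unigenes. None passed in edgeR (0% of unigenes) or DESeq2 (0.681%) or had an unadjusted p under 0.05 (6.29%), and contig_650 alone had separate triplets in FPKM (higher, 4.82%). On TMM-scaled counts 0 members did (higher, 4.54% of unigenes), and without 0d-28d library 3 contig_8943 came under an unadjusted p of 0.05. In 30d-28d against 30d-7d 7 of 10 were higher, with a median of 0.40 beside -0.01, none passed in edgeR (0% of unigenes) or DESeq2 (0.318%), and none had an unadjusted p under 0.05 (3.09%). In FPKM no member had separate triplets there (3.06% of unigenes higher, 4.96% lower), and on TMM-scaled counts contig_3410, contig_5918 and contig_650 did, higher in 30d-28d, against 4.23% of unigenes. contig_5918 had the lowest p, at a log2 change of 1.01 (SE 0.556, edgeR adjusted p = 1), and its unadjusted p was under 0.05 without 0d-7d library 3. In 30d-7d against 0d-28d 4 of 10 were higher, none passed in edgeR (0% of unigenes) or DESeq2 (0.564%) or had an unadjusted p under 0.05 (6.28%), and contig_23403 alone was separate in FPKM (higher, 5.62%), while on TMM-scaled counts 0 members were (4.38% of unigenes). Without 30d-7d library 3 contig_8943 and contig_23403 came under an unadjusted p of 0.05, and 1 member did without 0d-28d library 2 or 3, 30d-28d library 3 or control library 2. The effect of aging at 28 d minus that at 7 d, fitted as 1 contrast, was -0.92 for contig_650 (SE 0.434, edgeR adjusted p = 0.868). None of the 10 members passed in that contrast, where 0% of unigenes did, and 0 had an unadjusted p under 0.05, a level that 5.6% of unigenes reached.

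The 5 members that were low in 0d-7d also went up and down together between libraries. This grouping was seen in the values, so it is a description, over 15 libraries that share triplets and, within a pair, library depth. In addition, contig_3409, contig_5918 and contig_650 are short, at 433, 472 and 591 bases. The FPKM scaling of short contigs differs between libraries, which could add to their correlation, and correlations on read counts were not computed. Among contig_3409, contig_1053, contig_3410, contig_5918 and contig_650 the 10 pairs had Pearson correlations of log2(FPKM + 1) of 0.773 to 0.984 and Spearman correlations of 0.661 to 0.982. Their 25 pairs with the 5 remaining members lay between -0.351 and 0.435. Leaving out the 2 libraries farthest from the median, 30d-28d library 1 and 0d-7d library 3, gave 0.551 to 0.971.

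Without the 0d-7d triplet contig_3410 and contig_5918 were at 0.983 over the 12 libraries, the highest pair, contig_3409 and contig_1053 at 0.861, contig_1053 and contig_3410 at 0.828 and contig_1053 and contig_5918 at 0.737. contig_3409 was at 0.675 with contig_3410 and 0.573 with contig_5918. contig_650 was then at 0.346 with contig_5918, 0.360 with contig_1053, 0.374 with contig_3410 and 0.575 with contig_3409. The ratio of contig_5918 to contig_3410 in FPKM ranged from 0.301 to 0.809 with a median of 0.615, and 0d-7d library 3 had the lowest. The cathepsin B members contig_6407 and contig_6375 formed a pair of their own, with a Pearson correlation of 0.844, a Spearman correlation of 0.882 and 0.863 without 0d-7d.

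**Figure D4:**
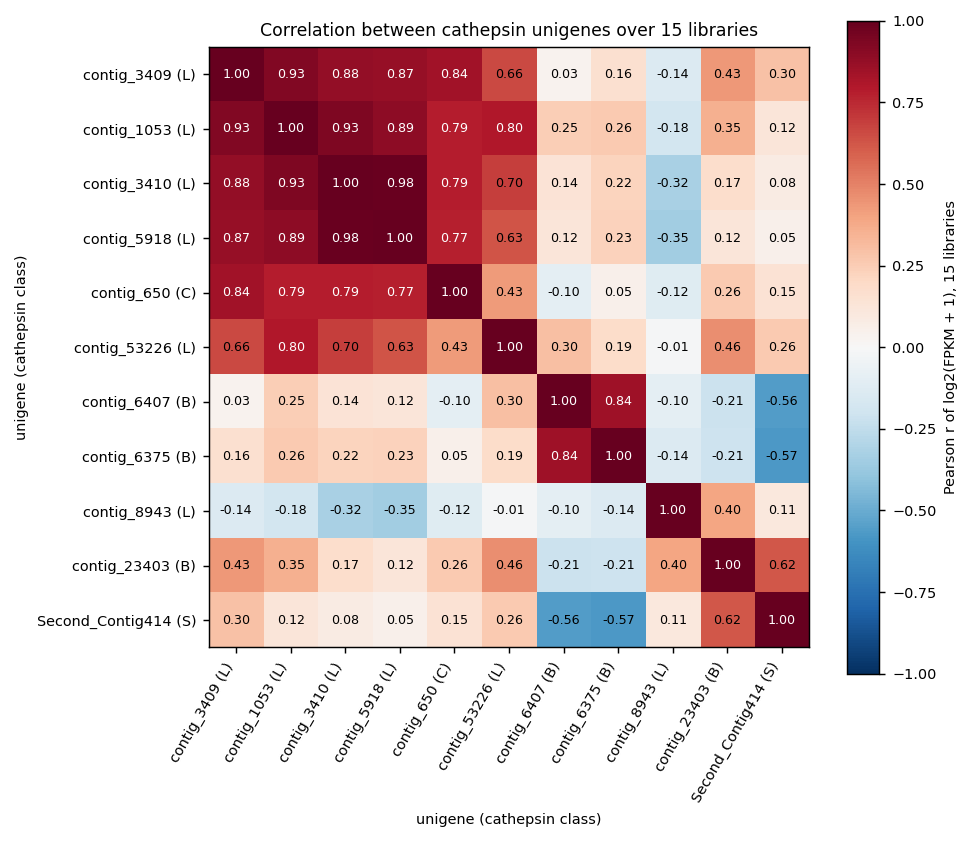
Pearson correlation of log2(FPKM + 1) over the 15 libraries for all pairs of the 10 members and contig_53226, from blue at -1 to red at 1. contig_3409, contig_1053, contig_3410, contig_5918 and contig_650 form a block of 0.773 to 0.984, and contig_6407 and contig_6375 a pair at 0.844.

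Second_Contig414 (Cathepsin S, 2172 bases) behaved unlike the other members. Cathepsin S is an endopeptidase that stays active at neutral pH and in mammals serves antigen presentation. It had 129.9 FPKM in 30d-28d library 3, 407.2 in 30d-7d library 1, 38.4 in 0d-7d library 2 and 580.1 in control library 2, from 7803, 11221, 1568 and 28166 reads. The 11 other libraries lay between 0.045 and 2.37 FPKM. Each of 4 triplets thus held 1 high library, and its mean over 15 libraries, by which it was chosen, rests on these 4. Its log2 change followed them: it was 6.17 in 30d-28d against 0d-28d (SE 3.53, edgeR adjusted p = 0.825) and -0.76 once 30d-28d library 3 was left out. In 30d-7d against 0d-28d it was 7.42 (SE 3.73, edgeR adjusted p = 0.789), 0.79 without 30d-7d library 1 and 2.94 with limma on log2(FPKM + 1). It had the lowest p of the members in both comparisons.

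The other cathepsin S unigene, First_Contig2835 (1680 bases), was high in the same 4 libraries, at 59.3, 105.1, 19.0 and 145.2 FPKM in the order above and at most 0.086 elsewhere. A cathepsin C unigene, contig_54196, had 272.4, 179.9, 83.9 and 132.5 FPKM in them, 362.1 in 0d-28d library 3 and at most 16.1 in the 10 remaining libraries. A pattern like that of Second_Contig414, 1 FPKM or less in the median library and 10 or more in the highest, was found in 13 of the 54 cathepsin unigenes tested, or 24.1%, and in 4.99% of all unigenes tested. contig_54196, at 10.4 FPKM in its median library, is not among them. A unigene of low level cannot reach the upper limit, so these shares are a description. No summed marker list followed Second_Contig414 closely: over 15 libraries the correlation of log2 levels was 0.294 with gut markers and 0.278 with the coelomocyte and immune list. Whether the 4 libraries hold another part of the body was not tested.

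**Figure D5:**
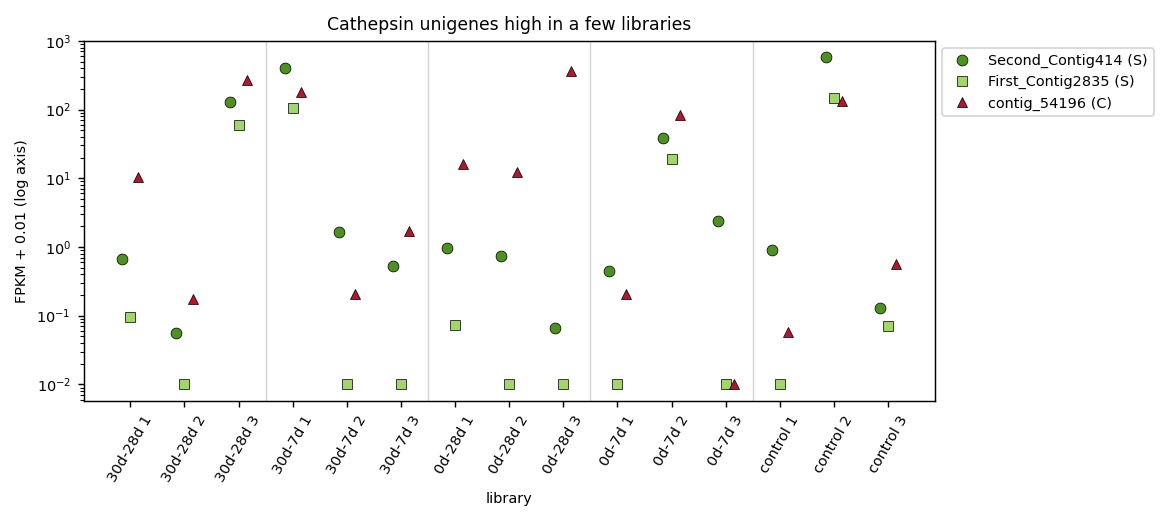
FPKM + 0.01 on a log axis for Second_Contig414, First_Contig2835 and contig_54196 in each of the 15 libraries, with vertical lines between triplets. All are high in 30d-28d library 3, 30d-7d library 1, 0d-7d library 2 and control library 2, and contig_54196 also in 0d-28d library 3.

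contig_53226, the cathepsin listed by name below the members, had 26.7, 21.9 and 27.3 FPKM in 30d-28d, 9.91, 21.5 and 13.8 in 30d-7d, 8.04, 16.9 and 5.22 in 0d-28d, 4.88, 13.5 and 4.39 in 0d-7d, and 37.6, 39.0 and 18.7 in control. Its 0d-7d and 0d-28d libraries all lay below those of 30d-28d and of control. Below control, 4% of all unigenes tested were separate in this direction for 0d-7d and 5.66% for 0d-28d. Below 30d-28d, the shares were 4.59% for 0d-7d and 4.82% for 0d-28d. The log2 change of contig_53226 in 0d-7d against control was -2.15 (SE 0.563), and it did not pass in edgeR in any comparison. The share of its variance between triplets was 70.7%.

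The rest of the lysosomal pathway was described by name lists. None of their unigenes passed the edgeR test in any of the 10 pairwise comparisons. Of the 65 cathepsin names 54 could be tested. Apart from the 10 members, 16 of the 44 others had a positive log2 change in 0d-7d against control, with a median of -0.96 beside -0.04 over all unigenes tested. In 0d-28d against control 10 of 44 did, with a median of -1.55 beside 0.00 over all unigenes. Several of the 44 were high in a few libraries only, such as contig_206399, a cathepsin L. It had 153.8 FPKM in 30d-28d library 3, 260.8 in 30d-7d library 1, 158.0 in 0d-7d library 2 and 335.2 in control library 2. These are the libraries in which Second_Contig414 was high, and elsewhere contig_206399 was at most 2.17, in 0d-28d library 2. How far such unigenes set these medians was not tested. Against 0d-7d the positive ones were 25 of 44 for 30d-28d (median 0.11, beside -0.02 over all unigenes), 30 for 30d-7d (median 0.30) and 21 for 0d-28d (median -0.05). In these medians a unigene without reads in a triplet is set at the bound that 3 counts over the triplet allow.

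Among 41 other lysosomal hydrolases 35 were tested, and in 0d-28d against 0d-7d 25 were positive with a median of 0.69, beside 0.01 over all unigenes. In 30d-28d against 0d-7d 23 were positive, with a median of 0.28, and in 30d-7d against 0d-7d 20, with a median of 0.13. In 0d-7d against control 16 were positive, with a median of -0.17 beside -0.04 over all unigenes. Against 0d-28d 11 were positive for 30d-28d (median -0.22) and 10 for 30d-7d (median -0.34). The highest in mean FPKM, Lysosomal hexosaminidase (contig_16932), which clips amino sugars off glycans, had 343.3 ± 93.7 FPKM in 30d-28d, 334.3 ± 73.5 in 30d-7d, 307.5 ± 109.8 FPKM in 0d-28d, 160.5 ± 33.7 in 0d-7d and 330.2 ± 145.6 FPKM in control. Next came Beta-hexosaminidase (contig_9764), with 137.3 ± 23.8, 145.6 ± 19.1, 127.9 ± 62.9, 118.3 ± 34.5 and 174.5 ± 61.4 FPKM in the same order. Beta-hexosaminidase subunit beta (contig_3434) had 149.3 ± 31.5, 126.0 ± 29.4, 144.3 ± 60.9, 68.7 ± 25.1 and 131.0 ± 58.0 FPKM in the same order (SD, n = 3). These 3 had their lowest mean in 0d-7d. The fourth, Glucosylceramidase (contig_139), which splits glucose from glucosylceramide, had 79.8 ± 131.3 FPKM in 30d-28d, 146.4 ± 218.8 in 30d-7d, 255.3 ± 361.8 FPKM in 0d-28d, 31.6 ± 54.7 in 0d-7d and 6.68 ± 9.80 FPKM in control, where its mean was lowest.

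Of 15 unigenes for the sorting of lysosomal enzymes 7 were tested. All 7 were negative in 0d-7d against control, with a median of -0.52, and 6 of 7 were positive in 30d-28d against 0d-7d, with a median of 0.70. The highest in mean FPKM was Vacuolar protein sorting-associated protein 35 (contig_73818), a subunit of the retromer, which returns sorting receptors from endosomes. It had 16.9 ± 3.98 FPKM in 30d-28d, 17.1 ± 1.34 in 30d-7d, 10.7 ± 1.33 FPKM in 0d-28d, 9.22 ± 4.02 in 0d-7d and 19.4 ± 4.15 FPKM in control. The 20 tested of 36 unigenes for the lysosomal membrane and its proton pump had 9 positive in 0d-7d against control, with a median of -0.05, and 4 positive and 16 negative in 30d-28d against control, with a median of -0.18. In the 8 remaining comparisons 7 to 13 were positive. Only 1 of 3 cathepsin inhibitors was tested, Cystatin (contig_73416), with 7.13 ± 2.88, 7.10 ± 3.09, 9.18 ± 3.13, 9.39 ± 6.26 and 4.87 ± 0.80 FPKM in 30d-28d, 30d-7d, 0d-28d, 0d-7d and control.

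For the 3 members highest in mean FPKM, the named unigenes most like them over the 15 libraries were sought among 3591 candidates. These correlations are descriptions over libraries that share triplets, depth and, for short contigs, an FPKM scaling that differs between libraries. Closest to contig_1053 was Rab7 (First_Contig199), a small GTPase of late endosomes and lysosomes, at a Pearson correlation of 0.953, a Spearman correlation of 0.889 and 0.890 without the 0d-7d triplet. It was followed by contig_3410, contig_3409, a Phospholipid-transporting ATPase (contig_29999, 0.901) and contig_5918. Closest to contig_3409 was RNF13_0 protein (contig_14424), whose mammalian namesake is a ubiquitin ligase, at 0.932, before contig_1053 at 0.928, contig_29999 at 0.923, Poly [ADP-ribose] polymerase (contig_14033) at 0.903 and Rab7 at 0.899. contig_8943 was closest to a Lysozyme (contig_62778, 0.826), an enzyme that degrades bacterial cell walls, then to Palmitoyltransferase (contig_123068, 0.816), MBSRC1 (contig_105187, 0.810), Ubiquitin carboxyl-terminal hydrolase 16 (contig_49816, 0.806) and another Lysozyme (contig_13295, 0.803). None of the 5 covarying members was among these. Without 30d-28d library 1 and 0d-7d library 3, the correlations above were 0.728 to 0.885 for contig_3409 and 0.769 to 0.914 for contig_1053. Without the 0d-7d triplet those of contig_3409 were 0.665 to 0.861. For contig_8943 they were 0.702 to 0.916 without 0d-28d libraries 1 and 2.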

How the data were processed

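The authors deposited 1 table, which per the file headers holds for each unigene a read count (whole numbers) and an FPKM value in every library, a length and a best protein match. Which programs assembled, aligned and counted is not given in the sources used, nor is the handling of reads that fit more than 1 unigene. No genome, chromosome or sequence was used. The members, lists and comparisons were chosen with earlier results of these data known.

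The deposited counts went unchanged into edgeR 4.0.16 (R 4.3.3): filterByExpr (minimum count 10, minimum total count 15), TMM scaling, and quasi-likelihood F tests in 1 fit of 5 triplets over 15 libraries, two-sided, with Benjamini-Hochberg adjustment over 101090 unigenes and a threshold of 0.05. The fit had 10 residual degrees of freedom and a biological coefficient of variation of 0.923. The 95% intervals use the degrees of freedom of the fit. In each pairwise comparison the log2 change is given for the member with the lowest p, others by counts and range or where singled out after their values were seen. Alternatives were DESeq2 1.42.0, upper-quartile scaling, a minimum count of 30 and no filter. Others were only the triplets compared, the replicate number as a block, and leaving out each library. As a further alternative, limma 3.58.1 was run on log2(FPKM + 1) with and without a minimum mean of 1 FPKM. On log2(FPKM + 0.1) it was run with that minimum only. Non-overlap on TMM-scaled counts was added after seeing the data. The procedure was tested on simulated data.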

Additional observations from a re-analysis of the deposited data

How the results depend on the processing

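No cathepsin member passed in edgeR in the 11 tests, and this count was 0 under every alternative with edgeR or limma and, over the libraries left out 1 at a time, ranged from 0 to 0. DESeq2 gave 2 members across the 5 triplets, 1 in 30d-7d against 0d-7d, 1 in 0d-28d against 0d-7d, and 4 in 30d-28d against 0d-7d. The log2 change of contig_650 in 30d-28d against 0d-7d ranged from 1.32 to 1.80 over the libraries left out and from 1.37 to 1.54 over the other alternatives. That of Second_Contig414 in 30d-28d against 0d-28d ranged from -0.76 to 6.83 over the libraries left out. The cause of the difference between tools was not tested. Same-numbered libraries did not deviate together: their deviations from triplet means correlated at -0.068 on average, 3 of 30 pairs exceeded 0.1, and 3 of 15 libraries were most like one of their own number. These values do not show that the numbers pair the libraries, but single correlations from -0.376 to 0.383 cannot exclude a pairing. With the replicate number as a block 0 members passed in each test, as without it. Counting error is small beside the spread between libraries, since the members other than Second_Contig414 had at least 63 reads in each library. The coefficient of variation of these members in FPKM over the 15 libraries ran from 33.7% for contig_650 to 61.7% for contig_5918. The biological coefficient of variation of 0.923 is that of the fit over all unigenes tested.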

Other observations

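Cathepsin unigenes below the 10 members also varied between single libraries. contig_7932 (Cathepsin L2) had 449.7, 67.0 and 107.9 FPKM in the control libraries, and contig_206399 (Cathepsin L) reached 335.2 FPKM in its highest library and was at 0 in its lowest. contig_4918 (Cathepsin L1) ran from 0 to 364.2 FPKM. contig_30232 (C1 family cathepsin L2) was steadier, between 4.66 and 64.0 FPKM.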
